A study of Mus musculus with 9 samples.

Results

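The genes described here are those for the cytosolic ribosomal proteins, the proteins of the large (60S, *Rpl*) and small (40S, *Rps*) ribosomal subunits. A gene was taken when it was protein-coding, when its mouse symbol was *Rpl* or *Rps* followed by a number (with a closing a, x, y or l where there is one) or was *Rplp0*, *Rplp1*, *Rplp2* or *Rpsa*, and when it had a total of 10 or more counts over all libraries. S6 kinase genes and pseudogenes were left out. These criteria gave 82 genes of the 53801 in each library, 50 of the large and 32 of the small subunit. *Rpl10l* met the symbol rule without a count and is named only.

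RNA was sequenced from monocytes/macrophages sorted as CD11c-Ly6G-CD11b+CD45high cells from male C57BL/6J mice, which the series record gives as 9 weeks old. The brain libraries (3) each held cells pooled from the ipsilesional hemispheres of 5 mice after permanent stroke surgery on the left side (dMCAO, in which the distal middle cerebral artery and also the common carotid artery are closed), and the stroke blood libraries (3) each came from the blood of 1 mouse after the same surgery. Both stroke groups were collected 5 days after dMCAO. The sham blood libraries (3) each came from 1 sham-operated mouse, and the day of collection of this group is not given in the sources used here. The CD11b+CD45high gate does not separate invading cells from all activated resident cells, so the brain group is a sorted population and not a lineage. Brain cells came from perfused tissue, broken up with a dissociation kit in a heated dissociator and separated on Percoll. Blood was drawn by cardiac puncture and separated on Ficoll. Tissue and isolation procedure therefore cannot be told apart in any comparison of brain and blood.

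Total counts were between 18475118 and 22623578 per library. Levels are given as CPM, the gene's counts scaled to the library's total, and 3 counts corresponded to 0.133 to 0.162 CPM. Of the 82 genes, 72 had 1000 or more counts in every library, so that counting error was small beside the spread between libraries.

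The ribosome translates mRNA into protein. Each mature ribosome holds a single copy of nearly every ribosomal protein, and the genes for these proteins are among the most strongly transcribed in growing cells. Most of their mRNAs begin with a 5′ terminal oligopyrimidine (TOP) tract, a run of C and T letters at the transcription start that lets mTORC1, through LARP1 and the 4E-BPs, control their translation and stability together. In monocytes and macrophages ribosome production is known to follow growth and activation signals.

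The promoter table used here (RefSeq, GRCm38.p6) held 62 of the 82 genes. The sequences below run from 40 bases before the annotated start to 39 bases after it, on the gene's strand. They are shown because these are the 4 genes with the largest and, leaving out the scarcely counted *Rpl24*, the 4 with the smallest decrease (or, for *Rpl7l1*, a positive value) in the brain against stroke blood among those with an entry. Capitals mark the longest run of C and T that touches the 10 bases on either side of the start, where it has 6 or more letters.
Rps28 (chr17:33824523-33824602, minus strand): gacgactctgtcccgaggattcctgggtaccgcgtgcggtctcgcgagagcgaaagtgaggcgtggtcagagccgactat
Rpl39 (chrX:37085183-37085262, minus strand): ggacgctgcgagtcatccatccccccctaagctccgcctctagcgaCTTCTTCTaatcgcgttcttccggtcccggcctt
Rps15a (chr7:118116108-118116187, minus strand): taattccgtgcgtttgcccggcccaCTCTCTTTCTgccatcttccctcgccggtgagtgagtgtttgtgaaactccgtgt
Rps21 (chr2:180257339-180257418, plus strand): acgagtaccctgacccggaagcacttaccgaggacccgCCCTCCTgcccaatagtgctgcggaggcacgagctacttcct
Rps6 (chr4:86857328-86857407, minus strand): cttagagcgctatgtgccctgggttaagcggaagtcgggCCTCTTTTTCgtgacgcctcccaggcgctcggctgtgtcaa
Rpl5 (chr5:107900488-107900567, plus strand): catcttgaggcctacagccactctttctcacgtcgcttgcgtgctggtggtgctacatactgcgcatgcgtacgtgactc
Rpl4 (chr9:64173347-64173426, plus strand): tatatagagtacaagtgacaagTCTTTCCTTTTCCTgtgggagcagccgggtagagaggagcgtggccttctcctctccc
Rpl7l1 (chr17:46782617-46782696, minus strand): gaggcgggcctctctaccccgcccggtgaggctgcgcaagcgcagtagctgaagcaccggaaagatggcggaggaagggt

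Among the 62 promoters, 27 (43.5%) held a run of 8 or more C and T letters on the gene's strand touching these bases, against 13.5% of all 27025 promoters in the table and 13.7% of the 9543 promoters of genes tested between brain and stroke blood. The longest run of the 8 sequences shown, 14 letters, was that of *Rpl4*, and *Rps28*, *Rpl5* and *Rpl7l1* had a run under 6 letters there. The annotated start lay on the end of the gene given by the count files for 12 of the 62 genes and within 100 bases of it for 47, and a TOP tract can be missed where the annotated start is off by some bases. The ETS-type motif CCGGAAG, on either strand and anywhere from 250 bases before to 50 after the start, was in 25 of the 62 (40.3%), against 9.16% of all promoters and 19.2% of those of genes tested. The YY1-type motif AAGATGGC on either strand was in 5 (8.06%), against 2.88% and 4.94%, and *Rps15a* and *Rpl7l1* hold it in the letters shown. The TATA box TATAAA on the gene's strand was in 6 (9.68%), against 8.89% and 4.43%. The median log2 fold change between brain and stroke blood was -1.39 for the 27 genes with a run of 8 or more letters and -1.35 for the 34 tested genes with a shorter run.

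The 82 genes together took 2.54%, 1.81% and 1.78% of all counts in brain libraries 1, 2 and 3. In stroke blood, libraries 1, 2 and 3 gave 4.91%, 3.58% and 5.11%. In sham blood, the shares were 3.34%, 2.56% and 2.90%. The mean share was 2.04% ± 0.43 in the brain, 4.54% ± 0.83 in stroke blood and 2.93% ± 0.39 in sham blood (SD, n = 3 each). Every stroke blood library lay above every library of the other groups, and every brain library lay below every sham blood library, brain library 1 lying just below sham blood library 2. The mean in stroke blood was 2.22 times that in the brain and 1.55 times that in sham blood. In bulk libraries, a smaller part of the cells with these transcripts and less of them per cell cannot be told apart.

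**Figure D1:**
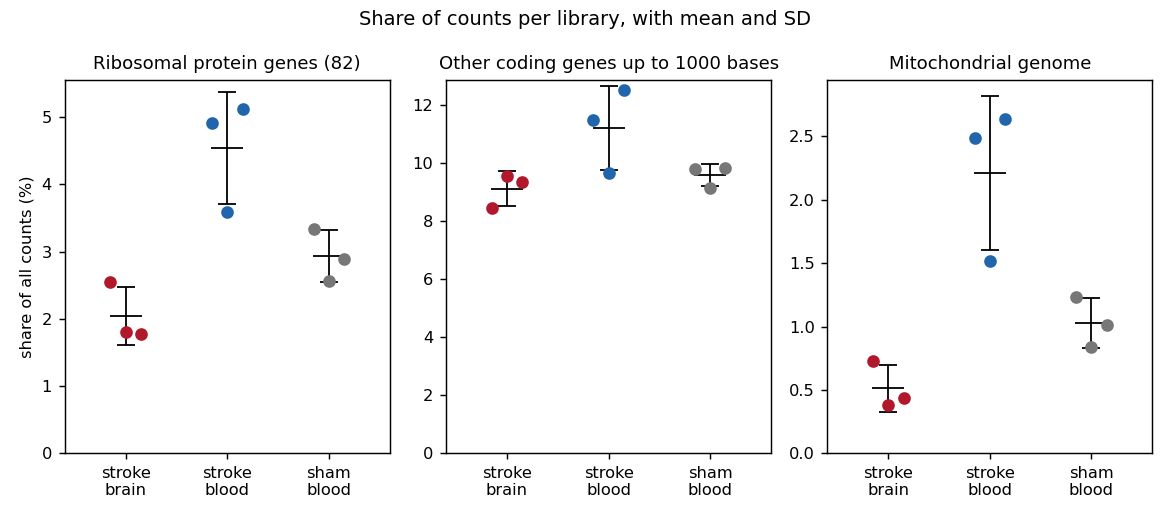
Share of all counts (%, linear axis from 0) in each library, one point per library, with the group mean (horizontal bar) and SD (whiskers, n = 3), for the 82 ribosomal protein genes, for the other protein-coding genes with a main transcript of up to 1000 bases (haemoglobin and other erythroid markers left out) and for the mitochondrial genome. The ribosomal protein share was between 1.78% and 2.54% in the brain, 3.58% and 5.11% in stroke blood, and 2.56% and 3.34% in sham blood.

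Large and small subunit genes had the same order of groups. Large subunit genes took 1.14% ± 0.23 of counts in the brain, 2.42% ± 0.42 in stroke blood and 1.60% ± 0.20 in sham blood, and small subunit genes took 0.905% ± 0.21, 2.11% ± 0.41 and 1.33% ± 0.18 (SD, n = 3 each). The ratio of the large to the small subunit share was between 1.23 and 1.29 in the brain libraries, between 1.12 and 1.19 in stroke blood and between 1.19 and 1.23 in sham blood. Named ribosomal protein pseudogenes (298 genes), which can share reads with their parent genes, held between 0.0129% and 0.0508% of counts, and their mean was likewise lowest in the brain (0.0156% ± 0.0044) and highest in stroke blood (0.0404% ± 0.011).

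Between brain and stroke blood, 74 of the 81 genes tested were lower in the brain and 0 were higher (edgeR quasi-likelihood test, adjusted p under 0.05). There were also 0 higher at an unadjusted p under 0.05 and 0 with DESeq2. Of all 13189 genes tested, 13.1% were called lower and 17.5% higher. At the study's threshold, which adds a fold change of more than 2 (an absolute log2 fold change above 1), 67 genes were lower, against 7.86% of all genes. The median log2 fold change of the 81 genes was -1.38, a 2.61-fold lower level in the brain, and that of all genes tested was 0.06. The same 74 genes were those in which every brain library lay below every stroke blood library in CPM, a pattern found in 17.3% of all genes tested. An unadjusted p under 0.05 was reached by 78 genes, against 18.9% of all genes in the lower direction.

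**Figure D2:**
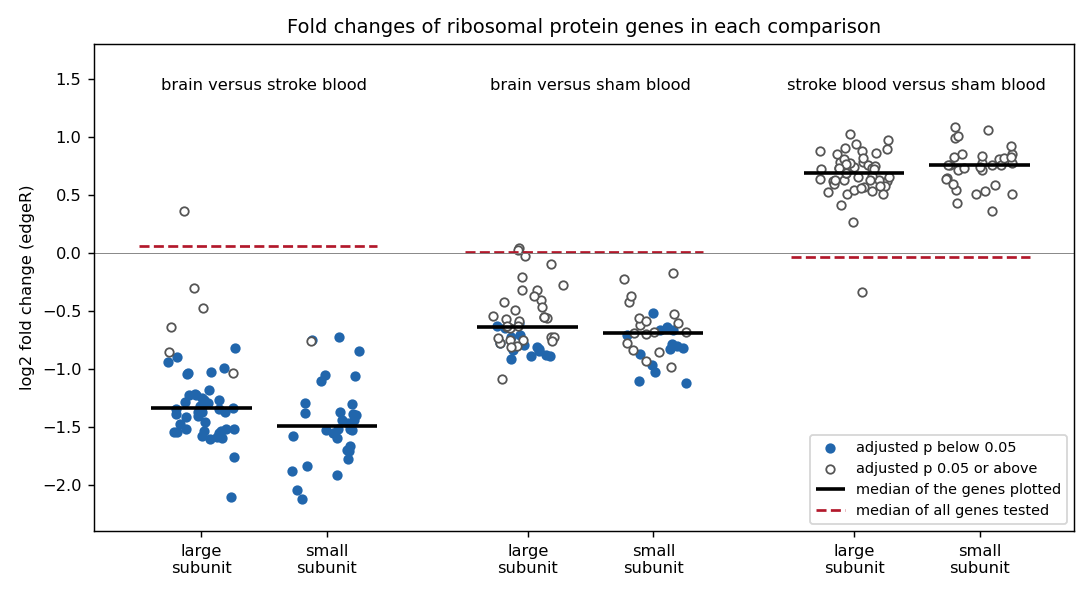
Log2 fold change (edgeR) of each gene tested, one point per gene, for the large and small subunit in the 3 comparisons, with filled points for an adjusted p below 0.05, a black bar for the median of the genes plotted and a dashed line for the median of all genes tested. Nearly all points lie below 0 in both comparisons of the brain and above 0 in stroke blood against sham blood, where none passed the adjusted threshold.

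In the small subunit, 31 of 32 genes fell and the median log2 fold change was -1.49. *Rps28*, a very small 40S protein, was counted at 243, 134 and 137 CPM in the brain libraries, at 747, 498 and 759 CPM in stroke blood and at 426, 250 and 347 CPM in sham blood. The brain libraries were the lowest throughout, and the groups did not overlap. Its level was the most reduced of all members in the brain against stroke blood, with a log2 fold change of -2.12 ± 0.27 (SE) and an adjusted p of 0.000584. *Rps15a*, another 40S protein, was at 185, 90.9 and 85.4 CPM in the brain and at 468, 304 and 555 CPM in stroke blood, a log2 fold change of -2.04 ± 0.33 (adjusted p = 0.002). *Rps21*, at 97.6, 34.4 and 37.6 CPM against 222, 123 and 226 CPM, changed by -1.92 ± 0.41 on the log2 scale (adjusted p = 0.00718), with brain library 1 well above the other brain libraries. *Rps20* and *Rps26*, which sit in the head and at the mRNA exit, fell by 1.88 ± 0.26 and 1.83 ± 0.30 on the log2 scale (adjusted p = 0.000896 and 0.00192). *Rps27a*, made as a fusion with ubiquitin, changed by -1.78 ± 0.26 (adjusted p = 0.00105). The small subunit gene that did not pass was *Rps2*, a protein of the mRNA entry site, which was at 597, 263 and 257 CPM in the brain and at 613, 443 and 631 CPM in stroke blood. Brain library 1 of this gene lay within the range of stroke blood, and the log2 fold change was -0.76 ± 0.32 (adjusted p = 0.0997).

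In the large subunit, 43 of 49 genes fell and the median log2 fold change was -1.34. *Rpl39*, a very small basic protein of the peptide exit tunnel, was at 141, 43.6 and 49.7 CPM in the brain, at 324, 204 and 369 CPM in stroke blood and at 200, 105 and 148 CPM in sham blood. Its groups did not overlap between brain and stroke blood, where the log2 fold change was -2.10 ± 0.43 (adjusted p = 0.00624). *Rpl37a*, among the genes most abundant per transcript length, was at 513, 465 and 464 CPM in the brain and at 1244, 1130 and 1376 CPM in stroke blood. Its libraries agreed closely within each group, and its log2 fold change of -1.54 ± 0.15 had an adjusted p of 0.000155. *Rpl32*, a widely used reference gene, was at 336, 280 and 285 CPM against 830, 644 and 865 CPM, a log2 fold change of -1.53 ± 0.17 (adjusted p = 0.000295). *Rpl22*, which binds RNA outside the ribosome as well, changed by -1.60 ± 0.25 (adjusted p = 0.00178).

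The stalk proteins recruit the elongation factors to the ribosome, and all fell in the brain against stroke blood. *Rplp0*, the stalk base and a common reference gene, was at 925, 790 and 772 CPM in the brain, at 1983, 1569 and 2051 CPM in stroke blood and at 1313, 1217 and 1372 CPM in sham blood. The 3 groups did not overlap, and the log2 fold change between brain and stroke blood was -1.33 ± 0.17 (adjusted p = 0.00054). *Rplp1* and *Rplp2*, its acidic partners, changed by -1.35 ± 0.24 and -1.55 ± 0.23 (adjusted p = 0.00296 and 0.00128). *Rpsa*, the 40S protein once described as a laminin receptor, was at 906, 460 and 428 CPM against 1720, 1183 and 1701 CPM, a log2 fold change of -1.52 ± 0.29 (adjusted p = 0.00457).

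The 6 large subunit genes that did not pass were *Rpl4*, *Rpl5*, *Rpl12*, *Rpl24*, *Rpl3l* and *Rpl7l1*; the first 3 are described here after their values were seen. *Rpl4*, which lines the exit tunnel, was at 827, 681 and 628 CPM in the brain and at 1040, 854 and 772 CPM in stroke blood, with a log2 fold change of -0.47 ± 0.17 (adjusted p = 0.0598). *Rpl5*, which carries the 5S rRNA into the large subunit, was at 510, 291 and 289 CPM against 575, 362 and 584 CPM (-0.64 ± 0.27, adjusted p = 0.0987). *Rpl12*, at the base of the stalk, was at 229, 71.3 and 77.3 CPM against 293, 137 and 259 CPM (-1.03 ± 0.45, adjusted p = 0.109). In *Rpl5* and *Rpl12*, brain library 1 reached into the range of stroke blood while the other brain libraries lay below it. The groups of *Rpl4* overlapped through brain library 1 and stroke blood library 3.

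**Figure D3:**
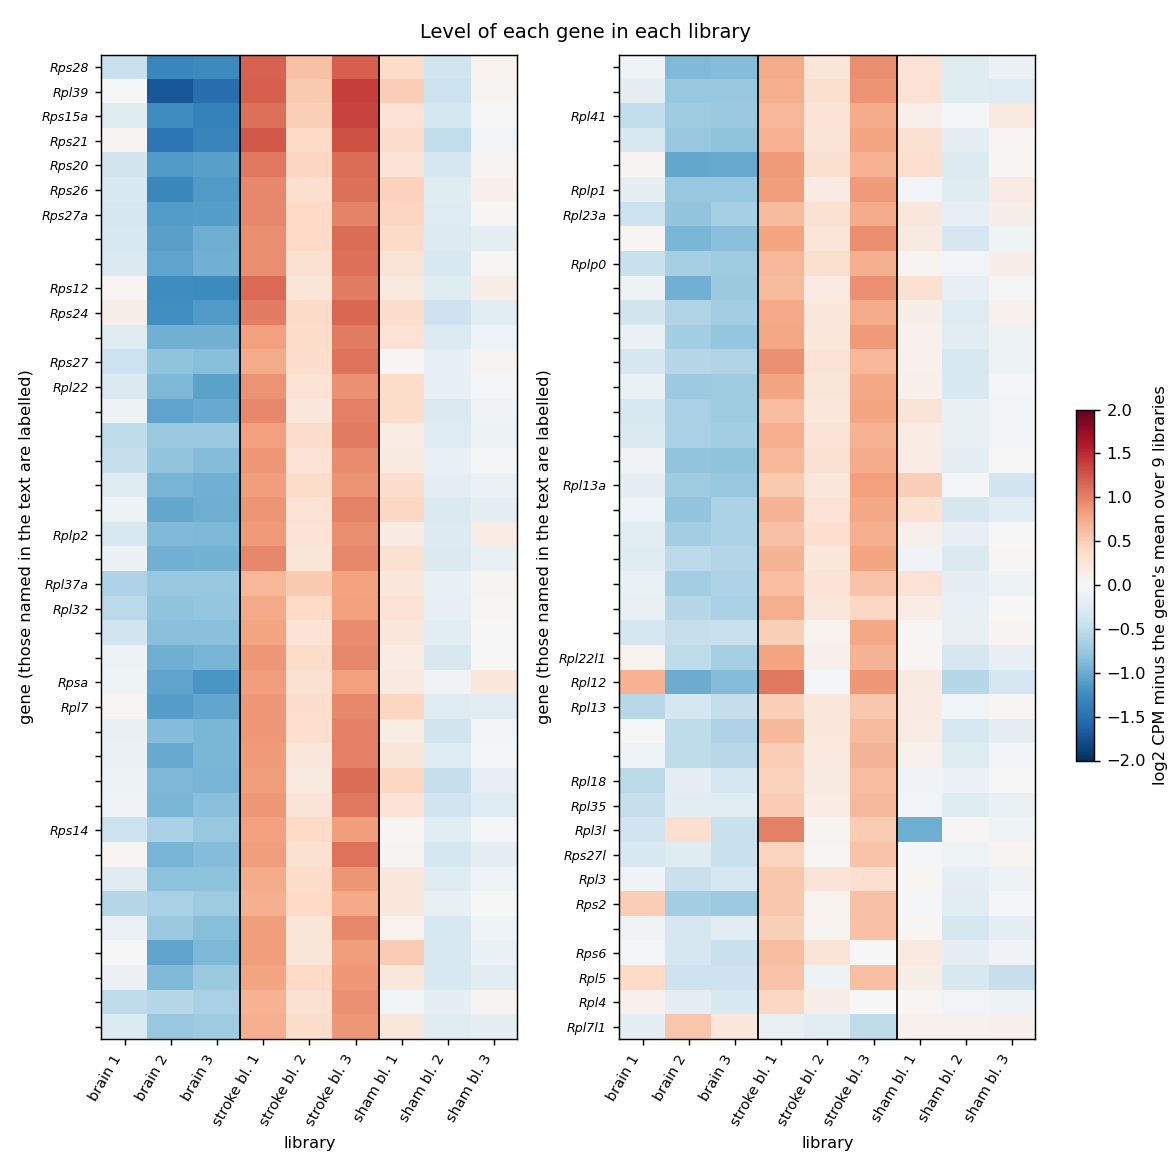
Level of 80 genes with 10 or more counts in every library (rows, in order of their log2 fold change between brain and stroke blood, down the left panel and on down the right) in the 9 libraries (columns), as log2 CPM minus the gene's mean over the libraries. Genes named in the text are labelled. The brain columns are blue and the stroke blood columns red for nearly all genes, sham blood lies between them, brain library 1 is paler than the other brain libraries, and *Rpl7l1* at the end shows the opposite signs.

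The paralogs are given beside their parent genes. *Rpl7l1*, a relative of *Rpl7* that acts in ribosome assembly, was at 104, 172 and 136 CPM in the brain, at 106, 101 and 82.4 CPM in stroke blood and at 124, 124 and 125 CPM in sham blood. Brain library 1 lay within the range of stroke blood and the others above it, and the log2 fold change of 0.36 ± 0.20 (adjusted p = 0.209) made it the single gene of the 81 with a positive value. *Rpl7* was at 627, 290 and 300 CPM against 1131, 786 and 1202 CPM, a log2 fold change of -1.52 ± 0.31 (adjusted p = 0.00573). *Rps27l*, a relative of *Rps27* that p53 induces, was at 134, 141 and 122 CPM in the brain against 227, 169 and 246 CPM in stroke blood, a log2 fold change of -0.85 ± 0.18 (adjusted p = 0.00706). With an offset that removes the trend with GC content and length over all genes, its value was -0.07 (adjusted p = 0.716) and the call was lost. *Rps27* itself fell by 1.60 ± 0.22 (adjusted p = 0.000852), at 388, 300 and 290 CPM against 872, 666 and 1111 CPM. *Rpl22l1*, the relative of *Rpl22*, was at 7.45 to 12.4 CPM in the brain and 12.7 to 20.6 CPM in stroke blood (-1.05 ± 0.29, adjusted p = 0.0244). Its call was lost with the same offset (-0.05, adjusted p = 0.904) and in 4 of the 6 fits that leave out a library (adjusted p = 0.0741 to 0.0883). The muscle paralog *Rpl3l* was scarce, at 27 to 108 counts per library (-0.86 ± 0.44, adjusted p = 0.168), beside *Rpl3* at 444 to 574 CPM in the brain and 723 to 875 CPM in stroke blood (-0.82 ± 0.16, adjusted p = 0.00446). *Rpl39l* had 0 to 12 counts per library and was not tested. The differences between paralog and parent were not tested.

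Between brain and sham blood, 29 of the 80 genes tested were lower in the brain and 0 were higher, against 7.68% of all 13020 genes called lower and 12.1% called higher. At an unadjusted p under 0.05, and with DESeq2, 0 were higher as well. At a fold change of more than 2 there were 3, *Rps28*, *Rps26* and *Rps27a*, a share of 3.75% against 3.67% of all genes. The median log2 fold change was -0.68, a 1.60-fold lower level, against 0.01 for all genes, and 78 of the 80 values were negative. *Rps28* changed by -1.12 ± 0.29 (adjusted p = 0.0311), *Rps26* by -1.11 ± 0.29 (adjusted p = 0.0341), *Rps27a* by -1.03 ± 0.26 (adjusted p = 0.0315) and *Rps20* by -0.97 ± 0.25 (adjusted p = 0.0319). *Rpl22* changed by -0.92 ± 0.24 (adjusted p = 0.0339) and *Rpl32* by -0.89 ± 0.16 (adjusted p = 0.00997). The more abundant genes with a small spread passed with smaller fold changes, such as *Rplp0* (-0.77 ± 0.13, adjusted p = 0.00828). *Rpl39* had a log2 fold change close to that of *Rps26* (-1.09 ± 0.46) but an adjusted p of 0.136, with brain library 1 above 1 of the sham blood libraries. *Rpl7l1* (0.02 ± 0.20) and *Rpl3l* (0.04 ± 0.44) were the 2 genes with a positive value. DESeq2 called 40 genes lower, against 8.04% of all genes. Every brain library lay below every sham blood library in 32 of the 80 genes, against 14.2% of all genes tested.

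The count of 29 genes depended on single libraries. It was 63, 6 and 5 without brain library 1, 2 and 3, where 8.51%, 3.25% and 3.51% of all genes were called lower. It was 11, 23 and 9 without sham blood library 1, 2 and 3 (5.78%, 3.83% and 3.47% of all genes). With all libraries the share of all genes was 7.68%, and 0 ribosomal protein genes were higher in each of these fits. The median log2 fold change lay between -0.90 and -0.53 over the 6 fits that leave out a library.

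Between stroke blood and sham blood, 0 of the 80 genes tested passed an adjusted p of 0.05 in edgeR, and 1 of all 12664 genes did (0.0079% higher and 0.0% lower). An unadjusted p under 0.05 in the direction of stroke blood was reached by 75 of the 80 genes, against 6.51% of all genes tested, and DESeq2 called 16 of 80 higher (adjusted p under 0.05), against 0.857%. Without the filter on low counts edgeR called 18 of 82 higher, against 0.394%. The median log2 fold change was 0.73, a 1.66-fold higher level in stroke blood, against -0.03 for all genes, and 79 of 80 values were positive. Every stroke blood library lay above every sham blood library in 55 of the 80 genes, against 8.23% of all genes tested. The values were 1.08 ± 0.29 (SE) for *Rps21*, 1.06 ± 0.26 for *Rps15a*, 1.02 ± 0.29 for *Rpl39* and 1.01 ± 0.25 for *Rps28*, with adjusted p-values of 0.285 to 0.287. These genes are named here after their values were seen. *Rpl7l1* was the single gene with a negative value, -0.34 ± 0.15 (adjusted p = 0.398), and each of its stroke blood libraries lay below each of its sham blood libraries.

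The comparisons share libraries, so their values for the same genes are not independent. Over the 3 groups, the mean CPM was highest in stroke blood, next in sham blood and lowest in the brain for 76 of the 80 genes tested in all comparisons, an order found in 19.4% of the 12158 genes so tested. In 26 of the 80, every stroke blood library lay above every sham blood library and every sham blood library above every brain library, against 1.82% of all genes. *Rps28*, *Rps27*, *Rpl37a*, *Rplp0* and *Rpl41* were among these 26.

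The libraries of a group differed in the same direction for most of these genes. Brain library 1 exceeded the mean of brain libraries 2 and 3 in 75 of the 79 genes with 100 or more counts in every library, by a median factor of 1.502. This factor was 3.08 for *Rpl12*, 3.03 for *Rpl39*, 2.71 for *Rps21*, 2.46 for *Rps12*, 2.44 for *Rps24* and 2.30 for *Rps2*, and 10 genes were above 2. The genes below 1 were *Rpl7l1* (0.673), *Rpl18* (0.831), *Rpl35* (0.837) and *Rpl13* (0.907). These genes were chosen after their values were seen. Sham blood library 1 likewise exceeded the mean of sham blood libraries 2 and 3 in 75 of the 79 genes, by a median factor of 1.25 and at most 1.67. The genes that varied most among the brain libraries tended to vary most among the blood libraries. Across the 79 genes, the SD of log2 CPM in the brain had a Pearson's r of 0.69 with that in stroke blood and of 0.67 with that in sham blood. These libraries are distinct, but all genes share the library's depth and scaling, and genes are not independent replicates.

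To see how the genes changed relative to each other, each library was also scaled to the total of the 82 genes, a choice made after seeing the data. The scaling holds their sum level, so that 68.5% of all genes tested were then called higher in the brain against stroke blood and 1.31% lower. Of the 81 genes tested, 3 were then higher and 3 lower in the brain. *Rpl7l1* was 1.69 ± 0.36 higher on the log2 scale (adjusted p = 0.00128), *Rpl4* 0.81 ± 0.28 (adjusted p = 0.0207) and *Rpl5* 0.66 ± 0.28 (adjusted p = 0.0457). *Rpl39* changed by -0.86 ± 0.35 (adjusted p = 0.0389), *Rps28* by -0.83 ± 0.28 (adjusted p = 0.0164) and *Rps15a* by -0.75 ± 0.30 (adjusted p = 0.035). The median of all genes tested was 1.36 with this scaling. Main transcripts were 2606, 1538 and 2045 bases long for *Rpl7l1*, *Rpl4* and *Rpl5*, and 612, 382 and 5130 bases for *Rpl39*, *Rps28* and *Rps15a*. This scaling was not run with the offset for GC content and length. *Rpl7l1* passed in all 6 fits that leave out a library, while *Rps28* passed in 3, *Rpl4*, *Rpl39* and *Rps15a* in 2 and *Rpl5* in 1. Without brain library 1, 7 genes were higher and 9 lower, and without another library, 1 to 3 were higher and 0 to 3 lower. In the other comparisons 0 of 80 genes passed in either direction by edgeR with this scaling, where 30.3% of all genes were called higher and 1.31% lower between brain and sham blood and 0.0% between stroke and sham blood. The number with an unadjusted p under 0.05 was 3 between brain and sham blood and 1 between stroke and sham blood. When a library was left out, 0 to 3 genes were higher and 0 to 7 lower between brain and sham blood. Between stroke and sham blood these fits gave 0 higher and 0 to 1 lower.

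Ribosomal protein transcripts are short, and short transcripts as a class were lower in the brain. The main annotated transcript of the 82 genes had a median length of 774.5 bases, against 2555 bases for all genes tested between brain and stroke blood. Among other protein-coding genes, the median log2 fold change between brain and stroke blood was -0.91 for the 68 with a main transcript of up to 500 bases, -0.44 for the 694 of 501 to 1000 bases, -0.09 for 1001 to 1500 bases and 0.24 above 3000 bases. The ribosomal protein genes of the first 3 of these classes (15, 45 and 13 genes) had medians of -1.53, -1.37 and -1.27. Of the other coding genes of up to 1000 bases that reached the mean level exceeded by 9 in 10 ribosomal protein genes, 163 in number, 62.6% were called lower and the median was -0.65. The trend had the same direction between brain and sham blood (-0.48 up to 500 bases and 0.10 above 3000) and the opposite one between stroke and sham blood (0.36 and -0.13).

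With the offset for GC content and length, 71 of the 81 genes were lower in the brain against stroke blood (19.6% of all genes), 37 of them by more than 2-fold in place of 67. Their median was then -0.96, with a median of all genes of -0.17. Between brain and sham blood the offset gave 21 genes lower (14.2% of all genes) and a median of -0.55, and *Rps28*, *Rps26*, *Rps27a* and *Rpl22* no longer passed (adjusted p = 0.0996, 0.0529, 0.0582 and 0.14), and between stroke and sham blood 0 genes and a median of 0.45. Among the 81 genes themselves, the log2 fold change between brain and stroke blood had a Pearson's r of 0.25 with log2 length and of 0.05 with GC content. The 2 ribosomal protein genes with a main transcript over 3000 bases, *Rps15a* (5130 bases) and *Rps20* (3706 bases), had a median of -1.96. They were thus among the most reduced genes despite their annotated length, and both falls were larger with the offset. The correlation without these 2 genes was not tested.

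**Figure D4:**
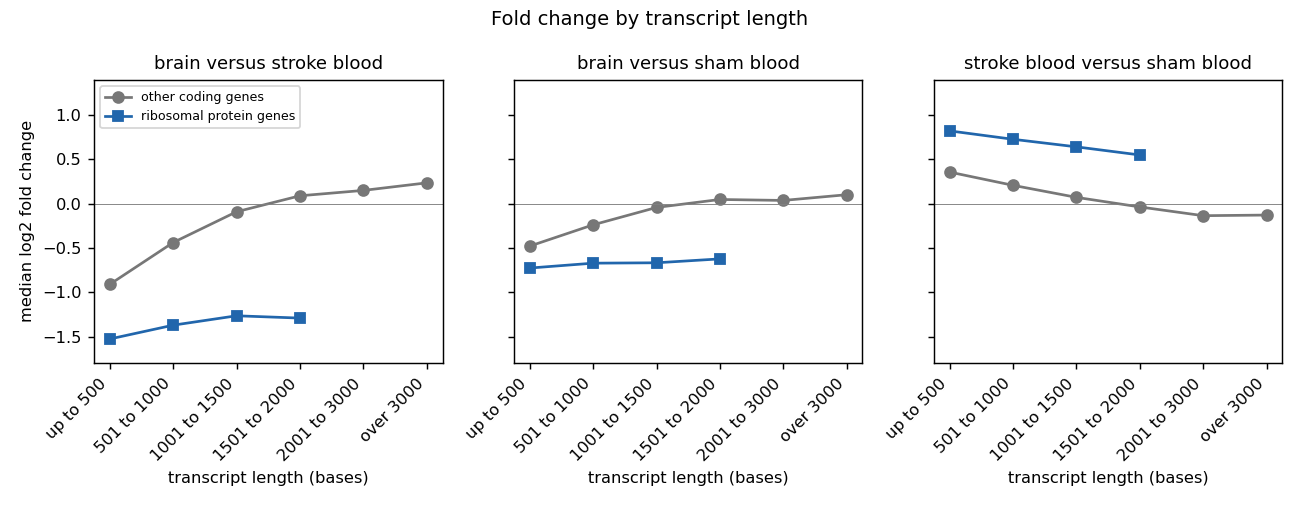
Median log2 fold change by class of main transcript length (bases), for the ribosomal protein genes (blue squares, classes with 3 or more genes) and for all other protein-coding genes tested (grey circles), in the 3 comparisons. Between brain and stroke blood the ribosomal protein medians lie between -1.53 and -1.27 and the other genes run from -0.91 to 0.24.

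The mitochondrial genome, which also gives short transcripts, held 0.727%, 0.379% and 0.438% of counts in the brain libraries, 2.49%, 1.52% and 2.64% in stroke blood and 1.23%, 0.837% and 1.01% in sham blood. Its order of groups was that of the ribosomal protein genes. In the brain, stroke blood and sham blood alike, the library with the highest ribosomal protein share also had the highest mitochondrial share. The other coding genes of up to 1000 bases, erythroid markers left out, took 8.45% to 9.55% of counts in the brain, 9.64% to 12.5% in stroke blood and 9.13% to 9.82% in sham blood, so that the brain and sham blood ranges overlapped. The part of library quality in the ribosomal protein values was not tested.

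Levels of different genes were compared as CPM per 1000 bases of the main transcript. *Rps27* had the highest mean over the 9 libraries, 1665, followed by *Rpl37a* with 1518 and *Rps14* with 1404. The lowest among the genes tested were *Rpl24* with 0.697, *Rpl3l* with 2.02 and *Rpl13a* with 9.14. *Rpl24*, which bridges the subunits, had 2 to 17 counts per library, and *Rpl13a*, a component of the interferon-gamma-activated inhibitor of translation complex, had 115 to 294. The exons of *Rpl24* overlap *Gm28037* and those of *Rpl13a* overlap *Gm45713*, both on the same strand, so that reads in the shared exons cannot be assigned and these 2 levels are uncertain. *Rpl23a*, at 162 to 398 counts, overlaps *Snord42b*. Exons of 27 of the 82 genes overlap another gene on the same strand, mostly small nucleolar RNA genes, and the library kit does not mark strand, so that the 19 genes with an overlap on the opposite strand can also share reads. *Rpl24* was tested between brain and stroke blood alone (-0.30 ± 0.89, adjusted p = 0.824).

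Of the ribosomal protein genes that the symbol rule misses, 3 of 4 fell in the brain against stroke blood. *Fau*, whose product is a fusion with the small subunit protein eS30, was at 258, 197 and 196 CPM in the brain, at 550, 406 and 595 CPM in stroke blood and at 339, 267 and 310 CPM in sham blood. It fell by 1.41 on the log2 scale in the brain against stroke blood (adjusted p = 0.000881) and by 0.62 against sham blood (adjusted p = 0.0353). *Rack1*, a scaffold of the 40S head, and *Rpl36al* fell by 1.03 and 1.05 in the brain against stroke blood (adjusted p = 0.0117 and 0.0276).

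The counts for other genes of the translation machinery stand beside 17.5% of all genes tested called higher and 13.1% called lower in the brain against stroke blood, and 12.1% and 7.68% against sham blood. Of 10 genes of translation elongation, a list that also holds *Pabpc1* and *Eef2k*, 5 fell in the brain against stroke blood and 1 rose, with a median log2 fold change of -0.58. The TOP mRNAs *Pabpc1* (poly(A)-binding protein), *Eef2* (the translocase) and *Eef1b2* (an exchange factor) fell by 1.84, 1.17 and 1.07 on the log2 scale, and *Eef2k*, the kinase that inhibits *Eef2*, rose by 1.63 (adjusted p = 0.0088). *Pabpc1* and *Eef2* also fell against sham blood, by 1.22 and 0.87. Of 36 initiation factor genes 9 fell (25%) and 3 rose (8.33%), with a median of -0.02. Those with the largest decreases were the eIF3 subunit genes *Eif3f* (-1.77), *Eif3h* (-1.41) and *Eif3i* (-1.08) and *Eif2a* (-1.07). Of 8 tested host genes of small nucleolar RNAs with TOP-type starts, 3 fell in the brain against stroke blood, *Snhg8* (-1.62), *Gas5* (-1.46) and *Zfas1* (-1.44). The median of the 8 was -0.67. Against sham blood 0 of the 8 fell and 0 rose, with a median of 0.09.

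Of 48 ribosome assembly genes tested, 13 were higher (27.1%) and 2 lower (4.17%) in the brain against stroke blood, with a median of 0.42. Against sham blood 8 were higher (16.7%) and 1 lower (2.08%), with a median of 0.41. *Nop58*, a core protein of box C/D particles, was at 28.8, 34.6 and 33.6 CPM in the brain, at 13.8, 11.6 and 14.3 CPM in stroke blood and at 10.99, 13.16 and 12.02 CPM in sham blood. Its log2 fold change was 1.13 against stroke blood (adjusted p = 0.00307) and 1.30 against sham blood (adjusted p = 0.00355). The nucleolar phosphoprotein gene *Nolc1*, *Rrp15* and the 60S export adaptor gene *Nmd3* rose by 1.07, 0.92 and 0.91 against stroke blood. Of 21 genes of RNA polymerase I and its factors, 3 rose and 3 fell against stroke blood (14.3% each), shares near those of all genes. *Myc*, a transcription factor that drives ribosome production, was at 36.0, 33.3 and 35.1 CPM in the brain, at 3.52, 5.24 and 3.51 CPM in stroke blood and at 7.30, 5.92 and 5.30 CPM in sham blood. Its brain libraries lay far above all blood libraries, with a log2 fold change of 2.93 against stroke blood (adjusted p = 5.3e-05) and 2.37 against sham blood (adjusted p = 0.000541). *Rrn3*, the initiation factor of RNA polymerase I, rose by 1.14 against stroke blood (adjusted p = 0.0127), and the shared polymerase subunit genes *Polr2k* and *Polr1d* fell by 0.92 and 0.76.

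Of 20 genes of mTORC1 and TOP mRNA control, 3 fell in the brain against stroke blood (15.0%), a share near that of all genes, and 0 rose, with a median of 0.24. The genes that fell were *Eif4ebp2* (-1.74) and *Eif4ebp1* (-0.59), which encode repressors of cap-dependent translation, and the mTOR inhibitor gene *Deptor* (-1.13). Of 15 ribosome quality control genes, *Usp10* (1.04) and *G3bp1* (0.67) rose and *Mcts1* (-0.93) and *Rnf10* (-0.59) fell (13.3% each), shares near or below those of all genes. Of 77 genes of mitochondrial ribosomal proteins, 22 fell (28.6%) and 1 rose (1.3%), with a median of -0.34, led by *Mrpl30* (-1.34), *Mrpl33* (-1.26), *Mrpl58* (-1.14) and *Mrpl43* (-1.04).

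Markers of other cells differed between the groups. All 9 microglia markers were higher in the brain (summed level 1526 to 4249 CPM, against 135 to 202 CPM in stroke blood and 156 to 205 CPM in sham blood), and *Sall1* and *Olfml3* had 3 counts or fewer in every blood library. The 8 monocyte and macrophage markers summed to 45840 to 51430 CPM in the brain, 97390 to 107800 CPM in stroke blood and 88200 to 124400 CPM in sham blood, and all were detected in every group. Of these 8, 4 were lower and 1 was higher in the brain than in stroke blood. The 7 erythroid markers summed to 4.16 to 14.5 CPM in the brain and 13800 to 18460 CPM in stroke blood. In sham blood they summed to 1223 CPM in library 1 and to 34180 and 30420 CPM in the others. Without sham blood library 1, the median log2 fold change of the ribosomal protein genes between stroke and sham blood was 0.85. Over the 6 fits that leave out a library it was 0.58 to 0.87. Of the dendritic cell, T cell and NK cell markers, 5 of 6, 4 of 8 and 1 of 6 were higher in the brain than in stroke blood. The 5 neutrophil markers higher in the brain stood beside 1 that was lower, and their sum was 887 to 1465 CPM in the brain, 438 to 772 CPM in stroke blood and 747 to 2958 CPM in sham blood. The B cell markers summed to 460 to 731 CPM in the brain, 591 to 725 CPM in stroke blood and 677 to 978 CPM in sham blood, and the platelet sum was 38.3 to 84.3 CPM in the brain, 322 to 394 CPM in stroke blood and 18.4 to 671 CPM in sham blood. The 8 neural and choroid plexus markers summed to 159 to 289 CPM in the brain, 187 to 323 CPM in stroke blood and 167 to 284 CPM in sham blood. Of these 8, 2 had 3 counts or fewer throughout the brain group, against 6 in stroke blood and 5 in sham blood. Only 3 of them were tested between brain and stroke blood, where 1 was higher and 1 lower in the brain. The 5 endothelial markers summed to 34.5 to 61.0 CPM over all libraries. The part of the other cell types in the ribosomal protein values was not tested.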

How the data were processed

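The authors made cDNA from sorted cells with the SMART-Seq HT kit, prepared libraries with Nextera XT, aligned the reads (HISAT2, GRCm38) and used HTSeq to count them for each Ensembl gene. The deposited files hold raw counts without normalization. Versions, annotation release and strand setting are not given in the sources used here. Libraries were grouped by their titles. Symbols, lengths and exon overlaps came from GENCODE M21, which held 53706 of the 53801 identifiers. The main transcript was the shortest of the best-ranked (APPRIS) transcripts.

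Groups were compared in pairs with edgeR 4.0.16 (R 4.3.3; quasi-likelihood test, TMM, default filter, Benjamini-Hochberg over all genes tested). The script was tested on simulated data. Alternatives were DESeq2 1.42.0 (the study's tool), other scalings and filters, a replicate block, an offset for GC content and length, stricter thresholds, and leaving out each library. SDs are between libraries, and brain libraries are pools. No pair of replicates was alike to within counting error (chi-square statistics of 23.9 to 136 for each degree of freedom).

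The genes and lists were chosen with earlier results of these data known. Members were named as the 6 largest rises and falls called in each comparison, the paralogs with their parents, the stalk genes and *Rpsa*, the 3 highest and 3 lowest levels per length, and, from each other list, up to 4 called genes. Further members, such as *Rps2*, *Rpl23a* and *Rpl41*, are named outside this rule with their values known. PCR reads without molecular identifiers are not independent, so floors cover counting error only. Some genes of these lists are not reported here by name.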

Additional observations from a re-analysis of the deposited data

How the results depend on the processing

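Between brain and stroke blood, 71 to 78 genes were lower in the brain under most alternatives, where 6.8% to 19.6% of all genes were called lower. The exceptions were 70 at an adjusted p below 0.01, 67 with the fold threshold (7.86% of all genes) and 3 with scaling to the total of the 82 genes (1.31%). The median log2 fold change was between -1.58 and -1.28 over the fits that leave out a library, and -1.22 with library size alone. It was -0.96 with the GC and length offset and -0.98 with the replicate block and the offset together.

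Between brain and sham blood, 29 genes were lower (7.68% of all genes). The count was 17 with library size alone (5.51% of all genes), 5 at an adjusted p below 0.01 and 3 with an absolute log2 fold change above 1 (3.67%). It ranged from 5 to 63 when a library was left out, where 3.25% to 8.51% of all genes were called lower. Between stroke and sham blood, the 0 genes called became 16 higher with DESeq2 (0.857% of all genes) and 18 without the filter on low counts (0.394%). Without the 20 most abundant other genes in the total, the mean share rose to 2.395% in the brain, 5.57% in stroke blood and 3.64% in sham blood.

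Over 13612 genes, the deviations of same-numbered libraries from their group means correlated between -0.0702 and 0.0663, without a sign of pairing. For 79 ribosomal protein genes, log2 ratios of library 1 to the mean of the others in its group were compared between brain and sham blood. Their Pearson's r was 0.65. Whether replicate numbers pair the libraries for the ribosomal protein genes was not tested. With the replicate block, 77 genes were lower in the brain against stroke blood, where 11.1% of all genes were called lower. Against sham blood 53 were lower (5.97% of all genes), and 37 with the offset as well (12.4%). Between stroke and sham blood 0 passed.

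Single genes lost their call or changed sign under some settings. Against stroke blood, *Rps27l* and *Rpl22l1* lost their call with the offset (-0.07 and -0.05) and with the block and the offset (-0.07 and -0.08), and *Rpl22l1* also in 4 of 6 fits that leave out a library. Against sham blood, *Rpl22* lost its call in 5 of the 6 fits that leave out a library. *Rplp2*, *Rps20*, *Rps26*, *Rps27a* and *Rps28* lost it in 4, *Rps14* in 3 and *Rps27* in 2. The edgeR adjusted p-values in the fits without a call were 0.0537 to 0.113. Changes of sign were as follows. With the offset, and with the block and the offset, *Rpl24* (0.19 and 0.26) and *Rpl7l1* (-0.0203 and -0.0473) did so against stroke blood, and *Rpl22l1* (0.20 and 0.16), *Rpl3l* (-0.15 and -0.17), *Rpl7l1* (-0.21 and -0.24) and *Rps27l* (0.0039 and 0.00527) against sham blood. Against sham blood, *Rpl3l* (-0.0287) and *Rpl7l1* (-0.0511) did so with upper-quartile scaling, and *Rpl7l1* (-0.0118) with the block. When a library was left out, *Rpl24* ranged from -0.86 to 0.17 against stroke blood, and *Rpl3l* from -0.26 to 0.19 and *Rpl7l1* from -0.18 to 0.19 against sham blood. The cause was not tested.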
